A study of Mus musculus with 24 samples.

Results

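The genes described here are 35 genes of mitosis, measured as mRNA in MEFs (mouse embryonic fibroblasts). They were taken by symbol from a written list and cover 9 roles. All 35 symbols were present in the table of 55487 genes, and all 35 were among the 15401 genes with enough counts to be tested. The list holds CDK1 and its cyclins (*Cdk1*, *Ccnb1*, *Ccnb2* and *Ccna2*), mitotic kinases and an activator (*Plk1*, *Aurka* and *Tpx2*), the spindle checkpoint (*Bub1*, *Bub1b*, *Mad2l1* and *Ttk*) and the chromosomal passenger complex (*Aurkb*, *Birc5*, *Cdca8* and *Incenp*). It also holds 7 genes of the centromere and kinetochore (*Cenpa*, *Cenpe*, *Cenpf*, *Ndc80*, *Nuf2*, *Spc24* and *Spc25*), spindle motors and microtubule binders (*Kif11*, *Kif2c*, *Nusap1* and *Hmmr*) and 5 genes of the midzone and cytokinesis (*Kif20a*, *Kif23*, *Prc1*, *Anln* and *Ect2*). The last are 2 partners of the anaphase-promoting complex (*Cdc20* and *Ube2c*) and 2 genes of chromosome structure and surface (*Top2a* and *Mki67*).

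Cells enter mitosis when CDK1, bound to cyclin B, becomes active, and they leave it when the anaphase-promoting complex marks cyclin B and securin for destruction. Between these steps the kinetochore, a protein assembly on each centromere, ties chromosomes to spindle microtubules, and the spindle checkpoint holds anaphase back until all are attached. Most of these genes are transcribed late in the cell cycle, from G2 to M, so that their level in a culture follows the share of its cells in those phases as well as the transcription in each cell. In bulk libraries such as these, fewer cells of a type and less RNA per cell cannot be told apart.

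WT MEFs and *tfeb tfe3* DKO (double-knockout) MEFs, which lack the lysosomal transcription factors TFEB and TFE3, received DMSO as the vehicle, torin1, which blocks the kinase MTOR, or MK-8722, which activates the kinase AMPK directly. Each of the 6 groups had 4 libraries, 24 in all. Within a group each library came from another passage, 7, 8, 9 and 11 for WT and 8, 9, 10 and 11 for DKO, and values below are listed in that order. The 2 genotypes are separate lines of cells, so that the genotype and the line cannot be told apart, and nothing in the labels says that cultures of a line at different passages were started from separate embryos, so that the p-values measure the spread between passages. The comparisons ask whether the drugs change the RNA of a gene and whether the change depends on TFEB and TFE3.

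The libraries held 24668921 to 33332562 counts on genes, and the RNA integrity number ranged from 7.9, in a DKO library with MK-8722 at passage 10, to 9.9. *Tfeb* stood at 22.9 ± 1.74 CPM (counts scaled to library size, mean and SD of 4 libraries) in WT and 2.25 ± 0.289 CPM in DKO, both with DMSO, whereas *Tfe3* stood at 120.2 ± 1.17 and 124 ± 2.11 CPM, so that the RNA of *Tfe3* does not mark the knockout. Of 10 fibroblast markers all were among the genes tested, with *Col1a1* at 2382 ± 686 CPM and *Vim* at 2389 ± 301 CPM in WT with DMSO, but *Thy1* was at 0 in the 4 DKO libraries with DMSO. Of 7 leukocyte, 6 endothelial and 6 epithelial markers, 2, 1 and 2 were tested, and the highest group mean among these was 10.3 CPM, that of *Cd14* in WT with MK-8722. The 1 endothelial marker tested, *Kdr*, was called higher in WT with both drugs, from a mean of 0.0831 CPM to 0.390 CPM under torin1 and 0.948 CPM under MK-8722, and was not called with either drug in DKO, where no group mean was above 0.0303 CPM. With MK-8722 1 fibroblast marker fell in WT, where 5.87% of all genes were called lower. No other of these markers was called with MK-8722 in either genotype. With torin1 3 fibroblast markers fell and 3 rose in each genotype. Of all genes, 20.5% were called lower and 26.6% higher with torin1 in WT, and 20.2% and 23% in DKO. Both epithelial markers rose with torin1 in WT, from group means of 0.677 to 1.29 CPM for *Cdh1* and 0.316 to 0.657 CPM for *Epcam*. The leukocyte marker *Csf1r* fell with torin1 in WT, from 0.334 to 0.157 CPM, and *Cd14* rose in DKO, from 6.91 to 8.39 CPM. The part of these markers in the results was not tested. A gene is called changed where its fold was 1.2 or more and its adjusted p under 0.05. This p (edgeR adjusted p) is that of the quasi-likelihood test of edgeR, adjusted by the method of Benjamini and Hochberg over all genes tested.

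Promoter sequences are shown because genes of this kind often carry a cell cycle homology region (CHR) and CCAAT boxes. These motifs are read by the DREAM and MYB-MuvB complexes and by NF-Y. In RefSeq's promoter windows (GRCm38.p6, 250 bases before to 50 bases after a start site), 29 of the 35 genes were matched by symbol, with 31 windows. The CHR was searched as TTTGAA or TTCGAA, the CCAAT box as CCAAT and the E-box, which resembles the site of TFEB and TFE3, as CACGTG, each on both strands. A CHR was present in 25 of the 31 windows (23 of 29 genes), compared to 19.2% of the 32851 windows of all genes. A CCAAT box was present in 24 of the 31 windows (22 of 29 genes), compared to 37.4% of all windows, and both motifs in 22 windows (20 of 29 genes), compared to 7.52%. The E-box was found in 2 of 29 genes, *Ttk* and *Anln*, compared to 7.15% of all windows. The stretches below are the 150 bases before the RefSeq start site. Only a chosen part of the members was examined for exons, and those whose stretch overlaps no annotated exon are printed. Bases of CHR and CCAAT matches are in capitals. *Ccnb2* chr9:70421555-70421704 (-), *Cenpf* chr1:189688087-189688236 (-), *Kif11* chr19:37376232-37376381 (+), *Kif2c* chr4:117178773-117178922 (-), *Mki67* chr7:135716380-135716529 (-) and *Top2a* chr11:99024190-99024339 (-) are genes whose response to MK-8722 differed between the genotypes, and *Nuf2* chr1:169531465-169531614 (-) and *Spc25* chr2:69206214-69206363 (-) encode subunits of the NDC80 complex.
Ccnb2: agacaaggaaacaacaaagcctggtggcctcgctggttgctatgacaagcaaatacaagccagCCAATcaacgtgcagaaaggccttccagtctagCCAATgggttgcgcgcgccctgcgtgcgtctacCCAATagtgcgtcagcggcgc
Cenpf: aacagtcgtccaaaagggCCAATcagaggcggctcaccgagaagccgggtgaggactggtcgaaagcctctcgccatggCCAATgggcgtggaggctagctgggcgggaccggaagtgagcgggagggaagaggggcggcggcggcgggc
Kif11: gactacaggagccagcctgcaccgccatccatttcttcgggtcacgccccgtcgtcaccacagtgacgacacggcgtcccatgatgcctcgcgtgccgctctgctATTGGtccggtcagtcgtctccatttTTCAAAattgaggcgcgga
Kif2c: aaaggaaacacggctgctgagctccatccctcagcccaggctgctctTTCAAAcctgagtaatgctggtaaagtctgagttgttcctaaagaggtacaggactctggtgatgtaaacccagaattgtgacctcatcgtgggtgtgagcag
Mki67: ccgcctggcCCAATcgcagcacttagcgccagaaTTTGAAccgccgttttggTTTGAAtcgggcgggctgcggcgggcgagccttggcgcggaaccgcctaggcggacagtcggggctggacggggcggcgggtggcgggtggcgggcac
Top2a: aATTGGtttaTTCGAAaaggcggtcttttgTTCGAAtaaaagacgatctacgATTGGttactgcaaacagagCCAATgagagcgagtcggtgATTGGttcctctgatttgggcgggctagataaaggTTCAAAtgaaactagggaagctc
Nuf2: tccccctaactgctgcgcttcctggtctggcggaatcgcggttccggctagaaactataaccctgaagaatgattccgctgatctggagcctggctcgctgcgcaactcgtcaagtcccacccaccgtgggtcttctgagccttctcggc
Spc25: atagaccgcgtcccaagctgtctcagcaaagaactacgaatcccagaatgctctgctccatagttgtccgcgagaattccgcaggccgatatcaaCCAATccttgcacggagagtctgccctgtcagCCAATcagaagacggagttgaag
*Top2a* held 3 CHR matches and 4 CCAAT matches in this stretch, that of *Kif2c* held 1 CHR match and no CCAAT match, and that of *Nuf2* held neither. The stretch of *Kif2c* lies inside the gene as annotated (117159639 to 117182639), so its matches are those of a start site within the gene. The window of *Cdca8*, which is part of the motif counts, also lies inside its annotated gene. Outside the printed stretch a CHR lay 3 bases after the start site in *Cenpf*, 5 bases after it in *Ccnb2* and 25 bases after it in *Spc25*. Of the genes with a promoter window, 16 were called with a different response to MK-8722 in DKO, and 13 of them had a CHR and 13 a CCAAT box. Of the 13 that were not called, 10 had a CHR and 9 a CCAAT box. Whether the motifs bear on the responses was not tested.

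Levels were compared between genes per length of transcript, as TPM (share of all transcripts after correction for length). In WT with DMSO the highest of the 35 was *Cdk1*, the kinase that drives entry into mitosis, at 497 ± 13.02 TPM (SD, n = 4). *Ube2c*, the ubiquitin-conjugating enzyme of the anaphase-promoting complex, followed at 397 ± 22.9 TPM, and *Top2a*, the topoisomerase that untangles sister chromatids, at 329.97 ± 9.00 TPM. The lowest was *Ttk*, the MPS1 checkpoint kinase, at 20.3 ± 0.892 TPM, and the median over the 35 genes was 104 TPM. The median over the genes ranged from 97.9 TPM in WT with torin1 to 115 TPM in DKO with MK-8722.

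MK-8722 lowered a few of the mitosis genes in WT cells and raised a few in DKO cells. In WT, 5 of the 35 genes (*Incenp*, *Spc24*, *Kif11*, *Kif23* and *Mki67*) fell and 0 rose, where 5.87% of all genes tested were called lower and 10.3% higher. In DKO, 7 (*Ccnb2*, *Cenpe*, *Cenpf*, *Spc25*, *Kif2c*, *Nusap1* and *Hmmr*) rose and 0 fell, where 5.47% of all genes were called higher and 3.21% lower, so that both shares were above those of all genes. The CPM ranges with and without MK-8722 did not overlap for 9 genes lower and 0 higher in WT, where 14.8% and 15% of all genes had no overlap, and for 11 genes higher and 1 lower in DKO, where 11.4% and 9.64% had none. Both counts of 0 called genes were also 0 by DESeq2's Wald test and by limma voom, and at an unadjusted p under 0.05 they were 2 genes higher in WT and 1 gene lower in DKO. The median log2 fold change of the 35 genes was -0.13 in WT, compared to -0.01 over all genes, and 0.17 in DKO, compared to 0 over all genes. Of the 35 genes 26 had a log2 fold change below 0 in WT and above 0 in DKO, 4 were below 0 in both and 5 above 0 in both. Of all 15401 genes tested, 8096 were below 0 in WT and 7671 above 0 in DKO. The signs in the 2 genotypes were not paired over all genes, so the count of 26 has no baseline.

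The difference between these 2 responses was tested directly, as the log2 fold change with MK-8722 in DKO minus that in WT. It was called higher for 18 of the 35 genes and lower for 0 (also 0 by DESeq2, by limma voom and at an unadjusted p under 0.05), where 1.42% of all genes were called higher and 4.08% lower. The difference was above 0 for all 35 genes, from 0.07 to 0.52 with a median of 0.29, compared to a median of 0.01 over all genes. With library size alone in place of TMM scaling it was again above 0 for all 35, with a median of 0.28. Of the 18 called genes, 9 were also called with MK-8722 within a genotype. When each of the 24 libraries was left out in turn, 15 of the 18 kept their call in every fit, and between 15 and 25 genes were called. *Ect2* lost its call without the DKO DMSO library of passage 8, the DKO MK-8722 library of passage 9 or the WT DMSO library of passage 9. *Aurka* lost it in 7 fits, without those 3, the DKO libraries of passage 9 with DMSO and of passages 10 and 11 with MK-8722, or the WT DMSO library of passage 11. *Ccnb2* lost it in 7 fits, without the same 3, the DKO libraries of passage 10 with DMSO and 11 with MK-8722, or the WT libraries of passage 8 with DMSO and 9 with MK-8722. With passages 8, 9 and 11 alone, the passages that both genotypes have, 10 genes were called. This choice was made after these data had been seen, and the share of all genes called with it was not counted.

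The libraries of a group differed in the overall level of these genes. The mean log2 CPM of the 35 genes, relative to the mean of WT with DMSO, was -0.07, 0.02, 0.06 and -0.01 in the 4 WT libraries with DMSO and -0.17, -0.09, -0.06 and -0.21 in those with MK-8722. It was -0.13, 0.01, -0.01 and 0.04 in DKO with DMSO and 0.01, 0.23, 0.16 and 0.17 with MK-8722. The ranges with and without MK-8722 overlapped in each genotype, while every DKO library with MK-8722 lay above every WT library with MK-8722. At the same passage, MK-8722 minus DMSO had a median over the genes of -0.12, -0.10, -0.09 and -0.19 on the log2 scale in WT at passages 7, 8, 9 and 11, and of 0.13, 0.24, 0.19 and 0.13 in DKO at passages 8, 9, 10 and 11. In WT 26 genes were lower with MK-8722 at all 4 passages and 2 were higher at all 4, and in DKO 29 were higher and 2 lower at all 4. Such counts were not made over all genes, so they have no baseline and are given as a description. The DKO library of passage 8 was the lowest of its group under each treatment. Without the DKO libraries of passage 8, 5 genes fell and 0 rose in WT and 7 rose in DKO. The count of genes that rose in DKO rested on single libraries, being 4 without the DMSO library of passage 8 or the MK-8722 library of passage 9 and 12 without the MK-8722 library of passage 8. The DMSO library of passage 8 also set the count of genes that fell in DKO, which was 1 without it, and the count that fell in WT was 8 without the WT DMSO library of passage 7.

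The genes did not vary independently of each other. After the group means were removed, the correlation of log2 CPM between 2 of the 35 genes over the 24 libraries had a median of 0.65 over 595 pairs, from -0.12 to 0.93, and 591 pairs were above 0. These are correlations over libraries that share their depth and scaling with all genes, given as a description. The 35 genes are therefore not 35 separate observations of a response.

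**Figure D1:**
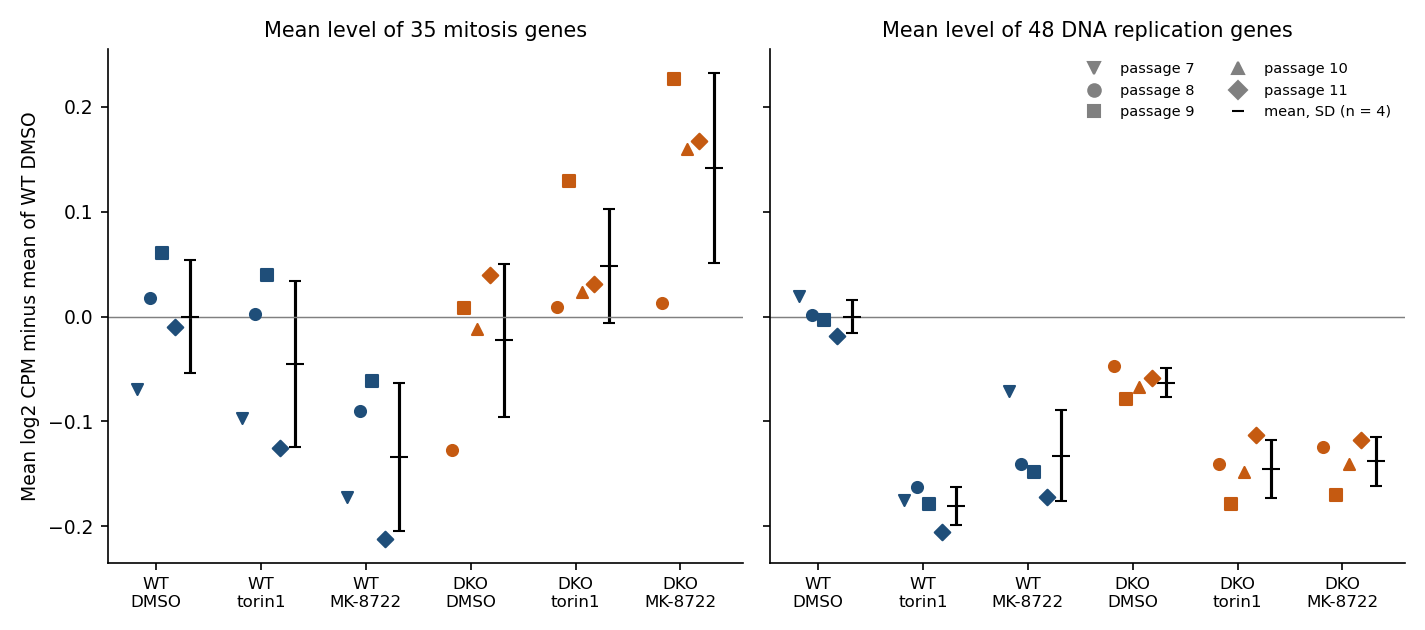
Mean log2 CPM of the 35 mitosis genes (left) and of 48 DNA replication genes (right) in each library, relative to the mean of WT with DMSO. Symbols mark the passage and the bars beside them the mean and SD of 4 libraries. The mitosis genes had a mean of -0.13 in WT and 0.14 in DKO with MK-8722, from -0.02 in DKO with DMSO, while the DNA replication genes had means of -0.13 and -0.14, from -0.063 in DKO with DMSO.

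**Figure D2:**
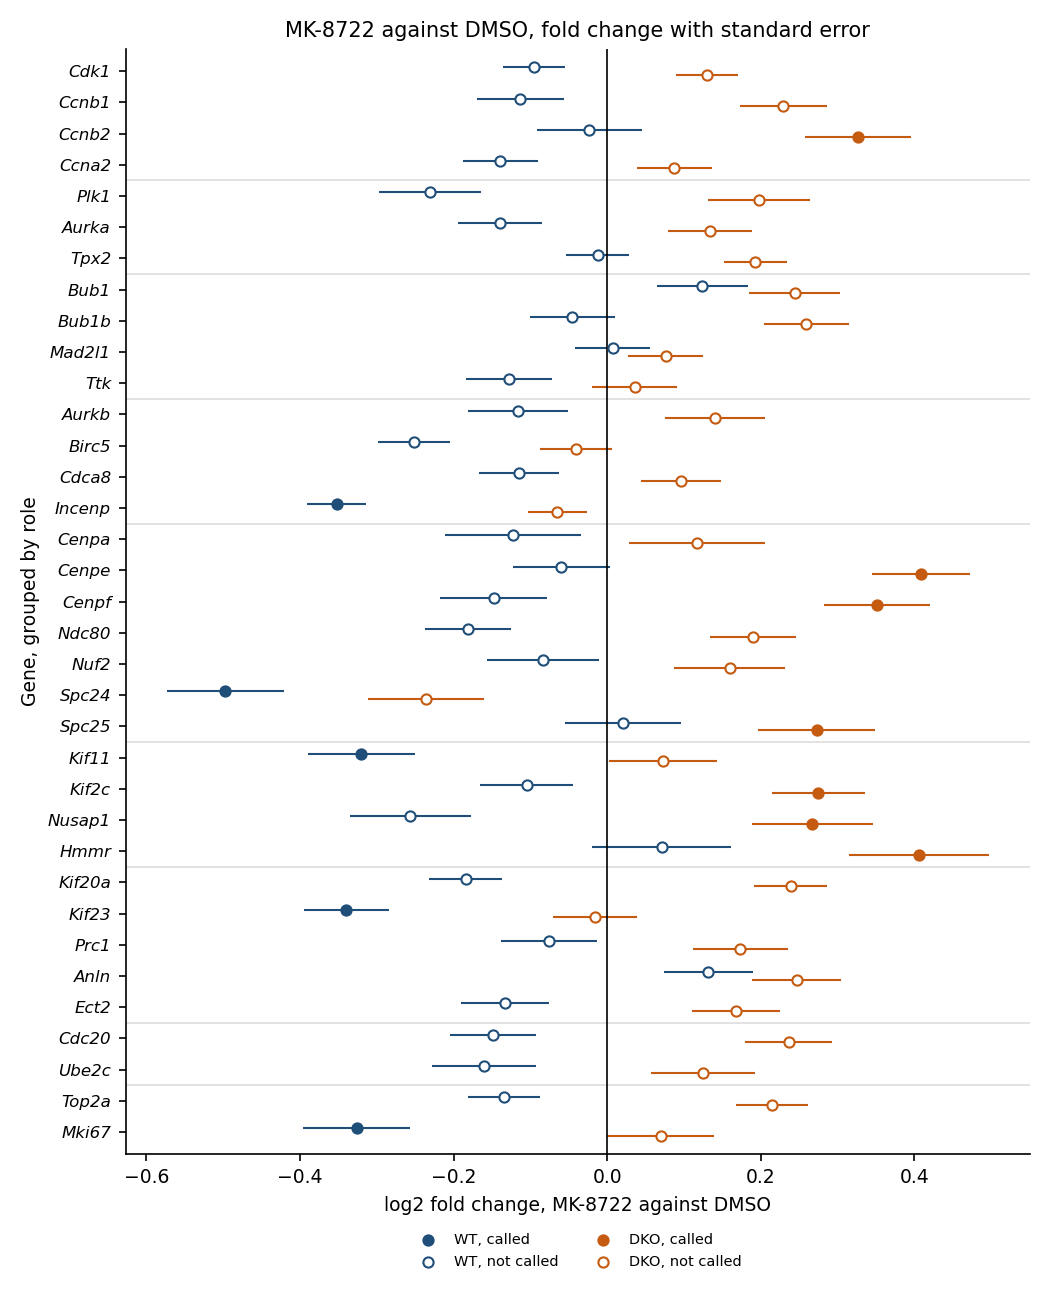
Log2 fold change with MK-8722 against DMSO in WT (blue) and DKO (orange) for the 35 genes, with standard errors; filled points were called and lines part the roles. In every pair of points the DKO value lies to the right of the WT value.

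Torin1 lowered some of the mitosis genes and raised others, in both genotypes. In WT 8 of the 35 genes fell and 4 rose, where 20.5% of all genes were called lower and 26.6% higher. In DKO 3 fell and 7 rose, where 20.2% of all genes were called lower and 23% higher. The shares that fell in WT and rose in DKO were near those of all genes, and the other 2 shares were below theirs. The median log2 fold change was -0.06 in WT and -0.01 in DKO, compared to 0.05 and 0.02 over all genes. With library size alone both medians turned to above 0, at 0.03 and 0.02, so no direction is given for the genes as a group. The extremes were larger than with MK-8722, from -0.55 to 0.81 in WT and from -0.61 to 1.09 in DKO.

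Of the called genes *Aurkb*, *Cdca8* and *Spc24* fell in both genotypes and *Cenpe*, *Cenpf*, *Ndc80* and *Nusap1* rose in both. No gene was called in opposite directions in the 2 genotypes. The response to torin1 was called higher in DKO than in WT for 3 genes, *Cenpe*, *Ndc80* and *Top2a*, and lower for 0 (also 0 by DESeq2, by limma voom and at an unadjusted p under 0.05), where 4.68% of all genes were called higher and 6.33% lower. At the same passage, torin1 was lower than DMSO at all 4 passages for 17 genes in WT and 10 in DKO, and higher at all 4 for 10 and 11 genes. These counts, too, were not made over all genes and have no baseline. The 12 calls in WT held whichever library was left out. With library size alone in place of TMM scaling, *Cdk1*, *Ccnb1*, *Mad2l1* and *Cdca8* lost their calls in WT, which left 4 genes that fell, *Aurkb* lost its call in DKO, and the response was called higher for 1 gene, *Top2a*. In DKO *Kif20a* lost its call without the DMSO library of passage 8 or 10 or the torin1 library of passage 9. *Aurkb* lost it in 9 of the 24 fits, without the DKO libraries of passage 11 with DMSO and of passages 8 and 10 with torin1, or the WT libraries of passages 7, 8 and 11 with torin1 or with MK-8722. In DKO 5 genes fell when the DMSO library of passage 8 was left out. The response to torin1 was called higher for 5 genes without the WT DMSO library of passage 11 or the WT torin1 library of passage 7, and *Ndc80* lost its call without the DKO DMSO library of passage 8 or the WT DMSO library of passage 9.

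**Figure D3:**
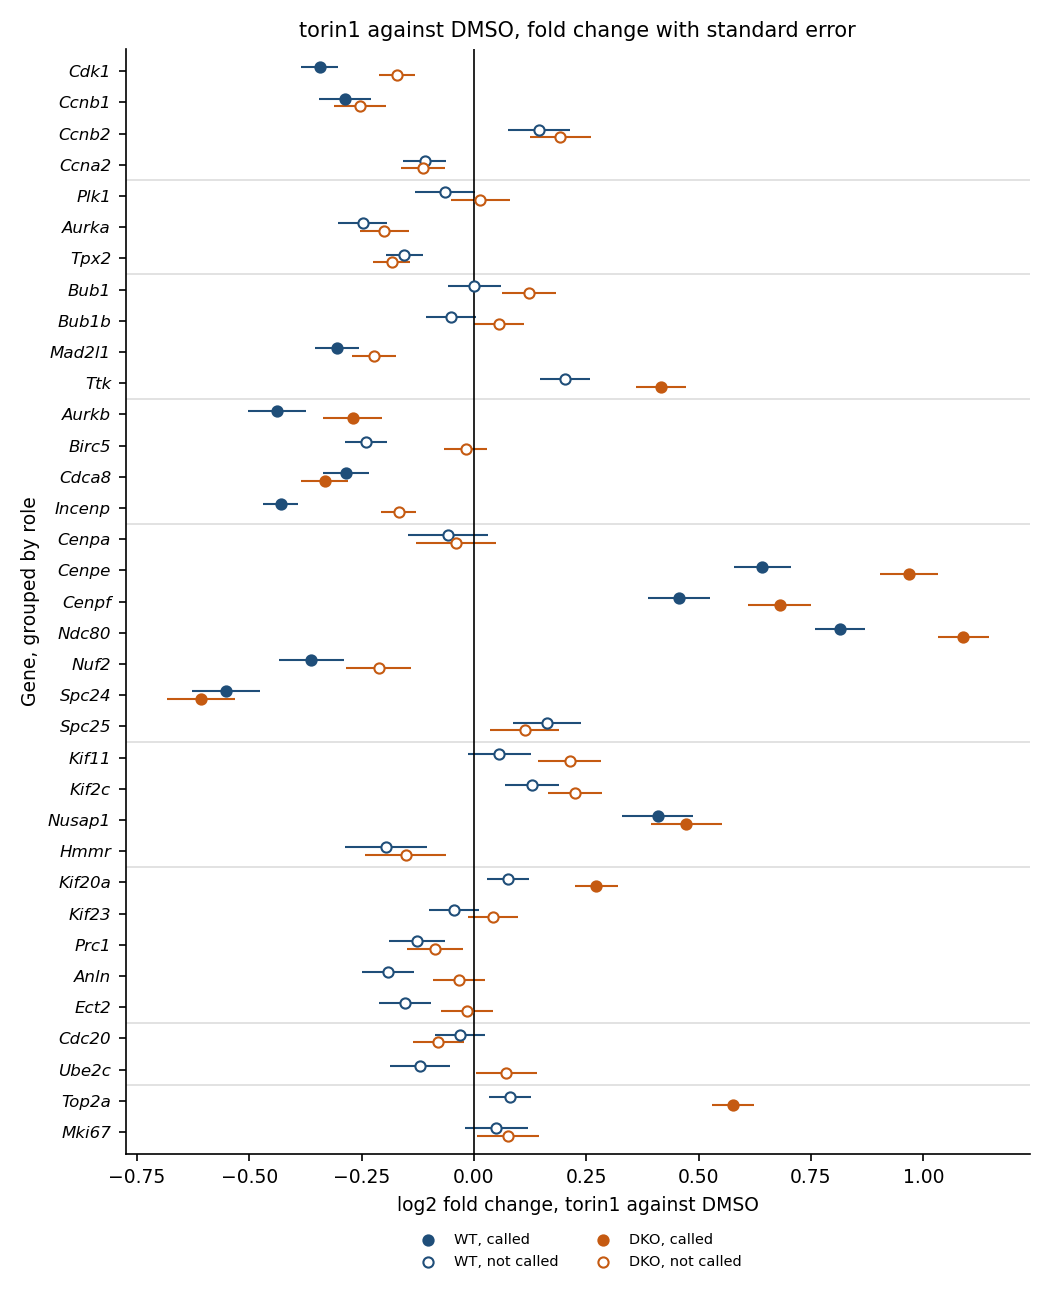
Log2 fold change with torin1 against DMSO in WT (blue) and DKO (orange) for the 35 genes, with standard errors; filled points were called and lines part the roles. *Ndc80* at 0.81 and 1.09 and *Spc24* at -0.55 and -0.61 are the extremes in WT and DKO.

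The 2 drugs were also compared directly. In WT 5 genes were lower and 8 higher with torin1 than with MK-8722, where 20% and 24.9% of all genes were called. In DKO 12 were lower and 5 higher, where 19.3% and 21.1% of all genes were called. The largest differences in both genotypes were those of *Ndc80*, at 1.00 (SE 0.06, edgeR adjusted p = 1.72e-12) in WT and 0.90 (SE 0.06, edgeR adjusted p = 8.22e-12) in DKO on the log2 scale. *Hmmr* in DKO was lower with torin1 by the largest amount, at a log2 fold change of -0.56 (SE 0.09, edgeR adjusted p = 1.57e-05). The count of 5 in WT was 3 without the MK-8722 library of passage 9 and 0 with library size alone. In WT *Nuf2* lost its call without that library, *Hmmr* without it, the MK-8722 library of passage 8 or the torin1 libraries of passages 7 and 11, and *Kif23* without the MK-8722 library of passage 11 or the torin1 library of passage 9. In DKO *Mad2l1* lost its call without the MK-8722 library of passage 9, and *Anln* without that one or the torin1 library of passage 10 or 11.

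Without drugs the genotypes differed in individual genes in both directions. In DKO with DMSO 7 genes were higher and 8 lower than in WT with DMSO, where 23.5% of all genes were called higher and 24.6% lower, so that the shares were near those of all genes. With torin1 9 were higher and 3 lower, where 24% and 27.8% of all genes were called, and with MK-8722 14 were higher and 0 lower (also 0 by DESeq2 and limma voom, and 1 at an unadjusted p under 0.05), where 23.3% and 25.4% were called. The median log2 difference was -0.02 under DMSO, 0.06 under torin1 and 0.21 under MK-8722. Library size alone moved the median of all genes by -0.13 in the comparison with torin1, and the median of the 35 genes then turned to -0.07 with 5 genes called higher and 5 lower. The CPM ranges did not overlap for 7 genes higher and 10 lower with DMSO, where 28.4% of all genes had no overlap in each direction, for 14 higher and 5 lower with torin1, where 28.6% and 31.7% had none, and for 18 higher and 0 lower with MK-8722, where 26.7% and 27.9% had none.

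The genes higher in DKO under all 3 treatments were 7, namely *Plk1*, *Ttk*, *Spc24*, *Kif23*, *Prc1*, *Anln* and *Mki67*. Another 7 were higher with MK-8722 and not called with DMSO, namely *Ccnb2*, *Aurka*, *Tpx2*, *Cenpa*, *Cenpf*, *Nuf2* and *Nusap1*. No gene that was lower in DKO with DMSO was called higher with a drug. These overlaps between treatments were not counted over all genes, so they have no baseline and are given as a description. Some of the calls of DKO against WT rested on single libraries. With DMSO *Ccnb1* lost its call without the DKO library of passage 8 or the WT library of passage 9, and *Cenpe* in 9 of the 24 fits, without the DKO DMSO libraries of passages 8 and 10, the WT DMSO libraries of passages 8, 9 and 11, the DKO MK-8722 library of passage 10 or the DKO torin1 libraries of passages 8, 9 and 11. *Mki67* lost its call with DMSO in 7 fits, without the DKO library of passage 9 or the WT library of passage 11 with DMSO, the WT torin1 libraries of passages 7 and 11 or the WT MK-8722 libraries of passages 7, 8 and 11. With MK-8722 *Aurka* lost its call without the DKO library of passage 11, *Cenpa* without the DKO library of passage 9 or the WT library of passage 11, and *Tpx2* without the DKO MK-8722 library of passage 9 or the WT libraries of passages 7 and 11 with either drug. With torin1 the call of *Spc25* was lost without the DKO library of passage 8 and that of *Nuf2* without the WT torin1 library of passage 7 or the DKO DMSO library of passage 10.

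**Figure D4:**
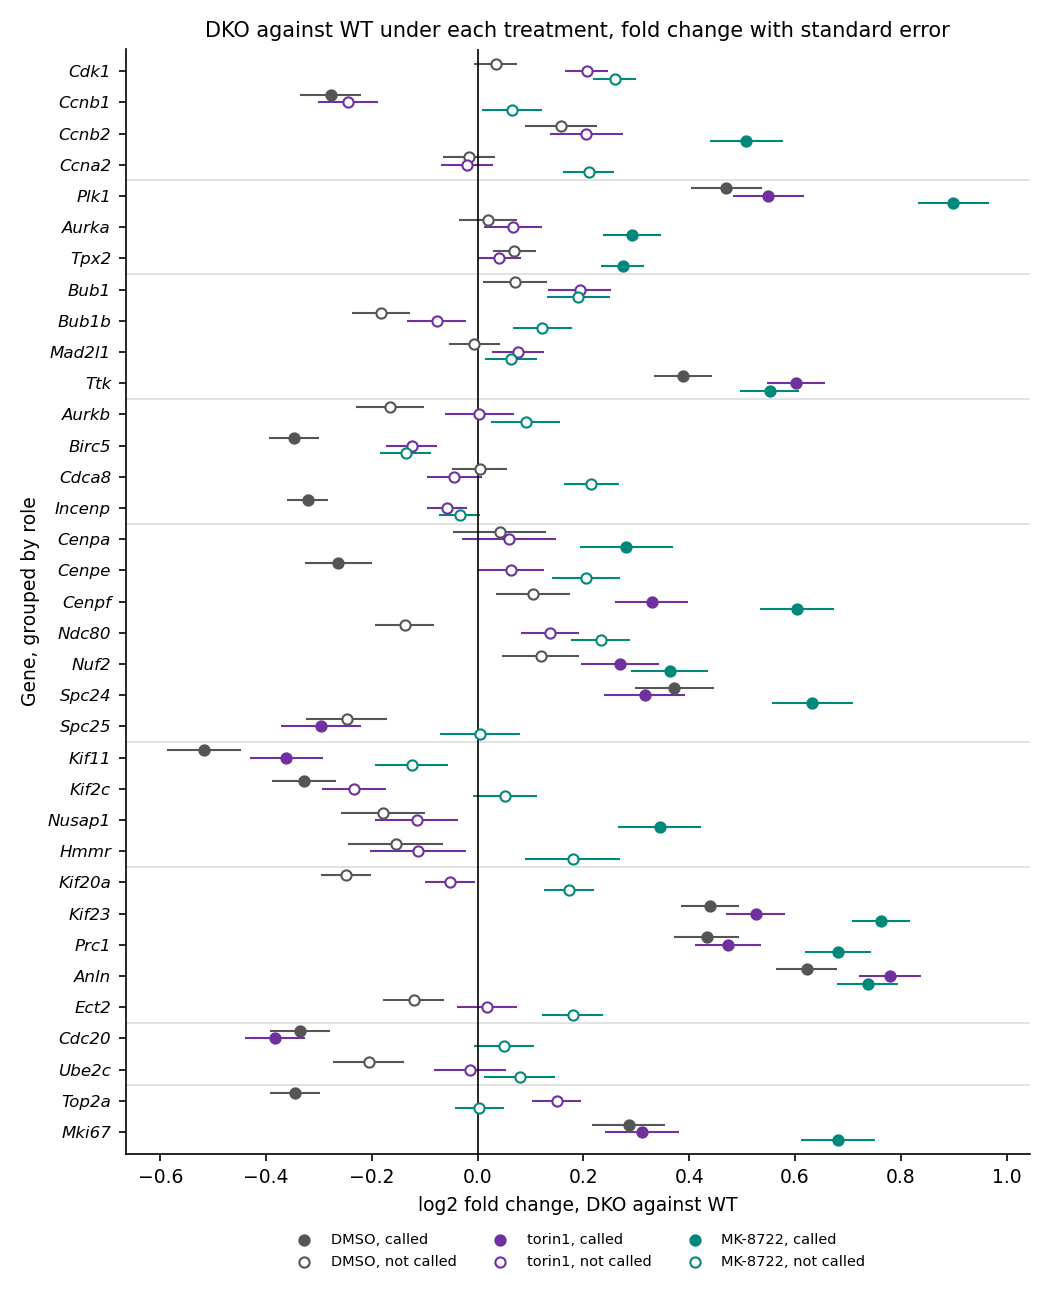
Log2 fold change of DKO against WT for the 35 genes under DMSO (grey), torin1 (purple) and MK-8722 (green), with standard errors; filled points were called and lines part the roles. The green points, with a median of 0.21, lie to the right of the grey points, with a median of -0.02, for each gene.

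Among CDK1 and its cyclins, torin1 lowered *Cdk1* and *Ccnb1* in WT, and MK-8722 raised *Ccnb2* in DKO. *Cdk1* in WT stood at 226, 238, 234 and 235 CPM with DMSO, 179, 187, 186 and 185 CPM with torin1 and 217, 215, 229.8 and 212 CPM with MK-8722. In DKO *Cdk1* stood at 223, 246, 240.2 and 246 CPM with DMSO, 207, 217, 207 and 218.8 CPM with torin1 and 238, 267, 269 and 273 CPM with MK-8722. The torin1 libraries lay below all DMSO libraries in both genotypes, with a log2 fold change of -0.34 (SE 0.04, edgeR adjusted p = 1.73e-07) in WT and of -0.17 (SE 0.04, edgeR adjusted p = 0.001) in DKO, the second under the fold of 1.2. *Ccnb1*, the cyclin B1 that activates CDK1, stood in WT at 181, 183, 195 and 184 CPM with DMSO, 150.3, 159, 158 and 141 CPM with torin1 and 165, 171, 188 and 161 CPM with MK-8722. In DKO it stood at 147, 152, 152 and 160.2 CPM with DMSO, 119, 135, 129 and 130.3 CPM with torin1 and 159, 192, 180.5 and 186 CPM with MK-8722. With torin1 no library of *Ccnb1* reached the range of DMSO in either genotype, and the log2 fold change was -0.29 (SE 0.06, edgeR adjusted p = 0.00014) in WT. Its response to MK-8722 was called higher in DKO, at a log2 difference of 0.34 (SE 0.08, edgeR adjusted p = 0.00894). *Ccnb2* (cyclin B2) rose with MK-8722 in DKO, at 0.33 (SE 0.07, edgeR adjusted p = 0.00168) on the log2 scale and had a value of -0.02 in WT. *Ccna2*, the cyclin A2 of S phase and early mitosis, was called with neither drug.

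Of the mitotic kinases, *Plk1*, which acts from centrosome maturation to cytokinesis, was higher in DKO throughout. *Plk1* RNA in WT stood at 160.5, 169, 179.9 and 209 CPM with DMSO, 155, 172, 186 and 173 CPM with torin1 and 145, 148, 159 and 159.6 CPM with MK-8722. In DKO it stood at 229, 253, 246 and 266 CPM with DMSO, 244, 267, 244 and 249.6 CPM with torin1 and 269, 291, 286 and 295 CPM with MK-8722. Every DKO library lay above every WT library, and DKO against WT was 0.47 (SE 0.07, edgeR adjusted p = 1.83e-06) with DMSO and 0.90 (SE 0.07, edgeR adjusted p = 6.93e-11) with MK-8722 on the log2 scale. Its change with MK-8722 was a log2 fold change of -0.23 in WT and 0.20 in DKO, neither of which was called, while their difference was, at 0.43 (SE 0.09, edgeR adjusted p = 0.00522). *Aurka*, the spindle pole kinase, and *Tpx2*, which activates it, had log2 fold changes with torin1 of -0.25 and -0.15 in WT and of -0.20 and -0.18 in DKO, none of which reached a fold of 1.2.

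In the spindle checkpoint, *Mad2l1* fell with torin1 in WT and *Ttk* rose with it in DKO. *Mad2l1*, which encodes the MAD2 inhibitor of CDC20, stood in WT at 94.8, 95.9, 98.8 and 90.9 CPM with DMSO, 79.5, 79.4, 75.8 and 73.2 CPM with torin1 and 98.3, 101, 96.1 and 87.00 CPM with MK-8722. In DKO it stood at 89.2, 98.6, 96.9 and 94.1 CPM with DMSO, 80.5, 82.7, 78.7 and 82.7 CPM with torin1 and 92.5, 107, 102.4 and 97.1 CPM with MK-8722. The torin1 libraries of *Mad2l1* lay below all others of their genotype, and the log2 fold change was -0.30 (SE 0.05, edgeR adjusted p = 1.01e-05) in WT and -0.22 (SE 0.05, edgeR adjusted p = 0.000425) in DKO, the second under the fold of 1.2. *Ttk* was counted in WT at 31.9, 35.2, 35.8 and 34.7 CPM with DMSO, 39.6, 40.8, 39.9 and 38.1 CPM with torin1 and 29.9, 31.96, 32.7 and 31.3 CPM with MK-8722. In DKO *Ttk* was counted at 41.9, 46.9, 45.2 and 46.1 CPM with DMSO, 60.3, 62.5, 58.5 and 59.03 CPM with torin1 and 40.1, 45.2, 49.3 and 50.1 CPM with MK-8722. Torin1 and DMSO did not overlap in either genotype, with a log2 fold change of 0.42 (SE 0.06, edgeR adjusted p = 8.47e-07) in DKO and 0.20 (SE 0.06, edgeR adjusted p = 0.00309) in WT, the latter under the fold of 1.2. *Bub1b*, which encodes the checkpoint protein BUBR1, was counted in WT at 181, 203, 209 and 203 CPM with DMSO, 183, 196, 209 and 179 CPM with torin1 and 183, 198, 208 and 181 CPM with MK-8722. In DKO *Bub1b* was counted at 164, 178, 177 and 182 CPM with DMSO, 178, 190.1, 181 and 179 CPM with torin1 and 196, 218, 209 and 216 CPM with MK-8722. Only in DKO did the ranges of *Bub1b* with MK-8722 and DMSO part, and its response to MK-8722 was called higher in DKO, at a log2 difference of 0.31 (SE 0.08, edgeR adjusted p = 0.0174). *Bub1*, the kinase that recruits BUBR1 to kinetochores, was called in none of the comparisons with DMSO.

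The chromosomal passenger complex corrects wrong attachments and consists of the kinase *Aurkb* with *Incenp*, *Birc5* (survivin) and *Cdca8* (borealin). *Aurkb* and *Cdca8* fell with torin1 in both genotypes and *Incenp* fell in WT. In WT 3 of its 4 genes fell with torin1 and in DKO 2 of 4, where 20.5% and 20.2% of all genes were called lower. The CPM of all 4 genes lay below the DMSO range in WT, where 25.7% of all genes did. *Aurkb* in WT stood at 106, 107, 114 and 109 CPM with DMSO, 77.7, 79.9, 88.2 and 75.6 CPM with torin1 and 94.5, 104, 108 and 95.8 CPM with MK-8722. In DKO *Aurkb* stood at 91.4, 92.2, 98.4 and 106 CPM with DMSO, 72.8, 83.7, 78.4 and 87.1 CPM with torin1 and 94.8, 112, 108 and 113 CPM with MK-8722. Its torin1 libraries lay below all other libraries of the same genotype, with -0.44 (SE 0.07, edgeR adjusted p = 4.09e-06) in WT and -0.27 (SE 0.07, edgeR adjusted p = 0.00116) in DKO on the log2 scale. *Incenp*, the scaffold of the complex, stood in WT at 282, 277, 287 and 278 CPM with DMSO, 215, 197, 223 and 199 CPM with torin1 and 230.1, 221, 224 and 206 CPM with MK-8722. In DKO *Incenp* stood at 216, 225, 229 and 229 CPM with DMSO, 195, 206, 197 and 203 CPM with torin1 and 214, 219.1, 213 and 214 CPM with MK-8722. In WT both drugs lay below all DMSO libraries, with a log2 fold change of -0.43 (SE 0.04, edgeR adjusted p = 1.91e-09) for torin1 and -0.35 (SE 0.04, edgeR adjusted p = 2.64e-07) for MK-8722. In DKO its value with MK-8722 was a log2 fold change of -0.06 and the difference between the genotypes was called, at 0.29 (SE 0.05, edgeR adjusted p = 0.00122).

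*Birc5* in WT stood at 123, 138, 129 and 125 CPM with DMSO, 111, 110.1, 115 and 99.7 CPM with torin1 and 108, 111, 114 and 99.5 CPM with MK-8722. In DKO *Birc5* stood at 95.4, 103, 106 and 101 CPM with DMSO, 96.8, 103, 99.9 and 99.6 CPM with torin1 and 96.6, 98.9, 99.98 and 98.03 CPM with MK-8722. All DKO libraries with DMSO lay below those of WT, with -0.35 (SE 0.05, edgeR adjusted p = 1.05e-06) on the log2 scale, and in WT both drugs gave lower values without overlap but under the fold of 1.2, at -0.24 with torin1 and -0.25 with MK-8722. *Cdca8* was counted in WT at 87.99, 85.1, 92.7 and 88.7 CPM with DMSO, 72.1, 75.1, 76.9 and 67.1 CPM with torin1 and 78.98, 87.2, 84.8 and 76.4 CPM with MK-8722. In DKO *Cdca8* was counted at 87.2, 87.4, 92.3 and 88.5 CPM with DMSO, 66.6, 77.1, 71.9 and 66.9 CPM with torin1 and 90.2, 98.7, 97.9 and 93.2 CPM with MK-8722. It fell with torin1 in both genotypes, at a log2 fold change of -0.28 (SE 0.05, edgeR adjusted p = 5.34e-05) in WT and -0.33 (SE 0.05, edgeR adjusted p = 8.45e-06) in DKO, without overlap with DMSO.

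The NDC80 complex, the microtubule-binding part of the kinetochore, is made of 4 subunits in equal number, and torin1 changed their RNAs in different directions. *Ndc80* (chromosome 17, 71496100 to 71526857 on GRCm38, minus strand) rose, *Nuf2*, its partner, fell in WT, *Spc24* (chromosome 9, 21755442 to 21760303) fell in both genotypes and *Spc25*, the partner of *Spc24*, was not called. *Ndc80* RNA in WT stood at 54.2, 52.03, 59.4 and 56.4 CPM with DMSO, 94.6, 100.4, 101 and 94.7 CPM with torin1 and 48.4, 48.6, 48.8 and 49.95 CPM with MK-8722. In DKO *Ndc80* stood at 44.6, 49.8, 50.8 and 56.4 CPM with DMSO, 108, 106, 107 and 108 CPM with torin1 and 51.96, 61.4, 57.2 and 59.4 CPM with MK-8722. Every torin1 library lay above every other library of both genotypes, with a log2 fold change of 0.81 (SE 0.06, edgeR adjusted p = 2.42e-11) in WT and 1.09 (SE 0.06, edgeR adjusted p = 3.34e-13) in DKO, and the response was called larger in DKO, at 0.27 (SE 0.08, edgeR adjusted p = 0.0194). The most abundant transcript of *Ndc80* (ENSMUST00000024851) stood at 29.0 TPM with DMSO and 51.5 TPM with torin1 in WT and at 25.3 and 56.6 TPM in DKO.

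*Nuf2* was counted in WT at 53.2, 58.9, 63.03 and 59.9 CPM with DMSO, 43.7, 44.98, 49.3 and 44.9 CPM with torin1 and 51.6, 55.2, 60.9 and 53.9 CPM with MK-8722. In DKO *Nuf2* was counted at 56.4, 63.04, 66.9 and 68.8 CPM with DMSO, 56.5, 56.7, 53.5 and 53.7 CPM with torin1 and 60.01, 76.6, 76.2 and 72.2 CPM with MK-8722. Torin1 libraries lay below all DMSO libraries in WT, with -0.36 (SE 0.07, edgeR adjusted p = 0.000171) on the log2 scale, while the ranges overlapped in DKO. *Spc24* was counted in WT at 44.3, 49.4, 48.3 and 39.4 CPM with DMSO, 30.5, 30.9, 33.7 and 28.5 CPM with torin1 and 34.5, 31.6, 35.01 and 27.4 CPM with MK-8722. In DKO *Spc24* was counted at 54.3, 59.6, 64.3 and 56.3 CPM with DMSO, 36.3, 40.9, 37.4 and 39.5 CPM with torin1 and 47.7, 51.7, 51.2 and 48.6 CPM with MK-8722. Its libraries with torin1 lay below all DMSO libraries in both genotypes, with a log2 fold change of -0.55 (SE 0.08, edgeR adjusted p = 1.51e-06) in WT and -0.61 (SE 0.08, edgeR adjusted p = 3.75e-07) in DKO. MK-8722 lowered it too in WT, at a log2 fold change of -0.50 (SE 0.08, edgeR adjusted p = 2.64e-05), and in DKO, where the ranges did not overlap, the value was -0.24 (SE 0.08, edgeR adjusted p = 0.0283), under the fold of 1.2. *Spc25* was counted in WT at 27.1, 30.2, 32.2 and 32.6 CPM with DMSO, 31.6, 34.8, 36.4 and 33.95 CPM with torin1 and 30.8, 30.9, 32.6 and 29.7 CPM with MK-8722. In DKO *Spc25* was counted at 21.8, 25.99, 26.6 and 28.4 CPM with DMSO, 25.8, 30.4, 26.6 and 28.5 CPM with torin1 and 27.3, 32.99, 31.9 and 32.1 CPM with MK-8722. It was called higher with MK-8722 in DKO, at a log2 fold change of 0.27 (SE 0.08, edgeR adjusted p = 0.0131), although the ranges overlapped and the call was lost without the DMSO library of passage 8 or the MK-8722 library of passage 9, 10 or 11.

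**Figure D5:**
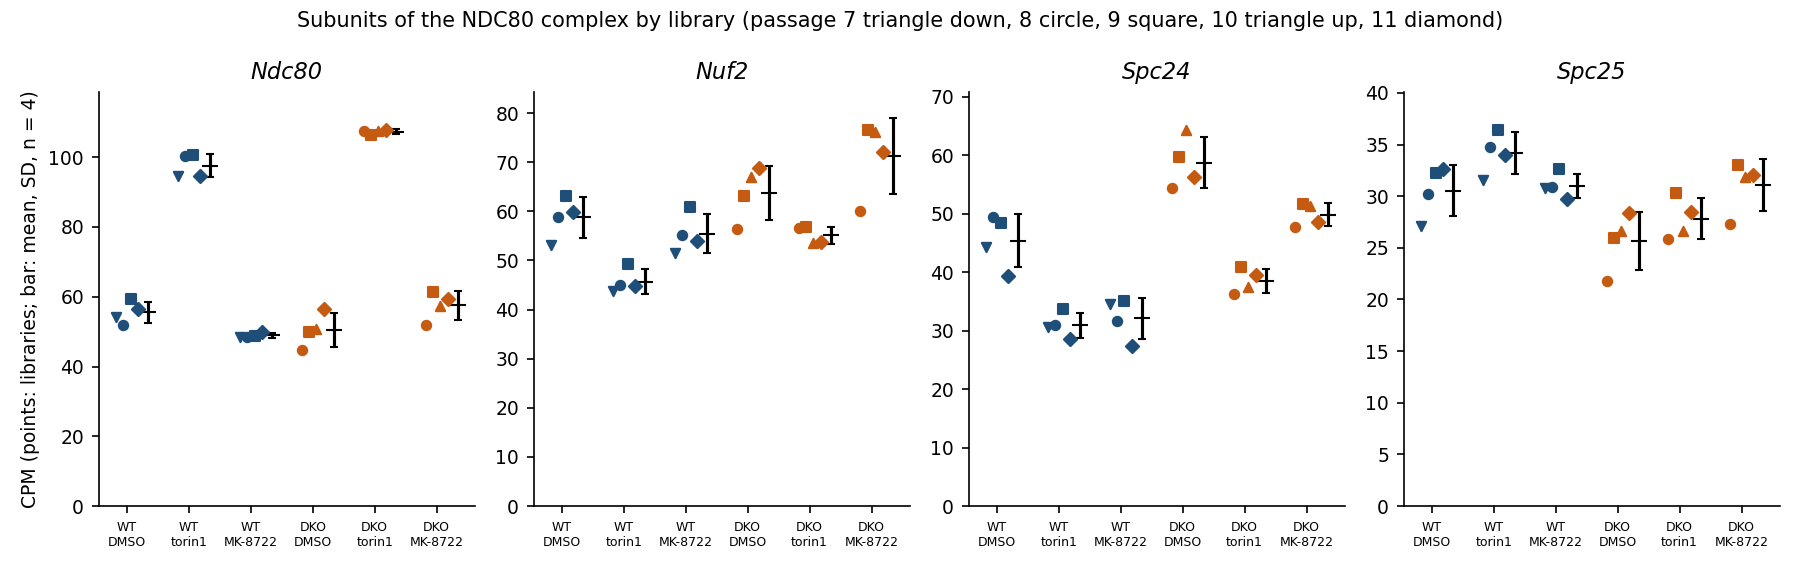
CPM of the 4 genes of the NDC80 complex in each library, by genotype and treatment, with the mean and SD of 4 libraries beside the points and each axis starting at 0. *Ndc80* with torin1 lies above all other libraries, from 94.6 to 108 CPM, while *Spc24* with torin1 lies below the DMSO libraries of its genotype.

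*Cenpe* and *Cenpf*, which encode proteins of the outer kinetochore, rose with torin1 in both genotypes, as did *Ndc80*. *Cenpe*, the kinesin that carries chromosomes to the equator, stood in WT at 169.9, 186, 183 and 180.4 CPM with DMSO, 261, 302, 292 and 266 CPM with torin1 and 162, 181, 175 and 172 CPM with MK-8722. In DKO *Cenpe* stood at 136, 155, 146 and 163 CPM with DMSO, 291, 313, 285 and 283 CPM with torin1 and 177, 222, 192 and 205 CPM with MK-8722. Torin1 raised it without overlap, at a log2 fold change of 0.64 (SE 0.06, edgeR adjusted p = 1.01e-08) in WT and 0.97 (SE 0.06, edgeR adjusted p = 1.68e-11) in DKO, and the response was called larger in DKO. MK-8722 raised it in DKO, at a log2 fold change of 0.41 (SE 0.06, edgeR adjusted p = 0.000116), and the value in WT was -0.06. *Cenpf*, a large coiled-coil protein that binds microtubules and dynein, stood in WT at 121, 135, 136 and 112 CPM with DMSO, 175, 184, 179 and 154 CPM with torin1 and 110.00, 116, 117 and 111 CPM with MK-8722. In DKO *Cenpf* stood at 131, 143, 126 and 141 CPM with DMSO, 209, 235, 214 and 209 CPM with torin1 and 157, 195, 172 and 168 CPM with MK-8722. It rose with torin1 in both genotypes, at 0.46 and 0.68 on the log2 scale, and with MK-8722 in DKO, at 0.35 (SE 0.07, edgeR adjusted p = 0.00095). The difference between the genotypes in the response to MK-8722 was a log2 difference of 0.50 (SE 0.10, edgeR adjusted p = 0.00176).

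*Cenpa*, the histone H3 variant that marks centromeres, was counted in WT at 98.8, 104, 100.4 and 88.02 CPM with DMSO, 95.4, 101, 100.5 and 78.9 CPM with torin1 and 89.1, 100.2, 95.5 and 74.4 CPM with MK-8722. In DKO *Cenpa* was counted at 93.7, 106, 101.8 and 101 CPM with DMSO, 93.5, 112, 95.6 and 90.4 CPM with torin1 and 101.8, 119, 113 and 103 CPM with MK-8722. The ranges overlapped in all comparisons with DMSO, and no drug changed the gene by a called amount. Its transcripts did not keep the same proportions, as ENSMUST00000199320 had 39.9 TPM with DMSO and 23.4 TPM with torin1 in WT, and 62.5 and 35.9 TPM in DKO. Another transcript, ENSMUST00000133316, had 72.0 and 73.2 TPM in WT and 60.2 and 71.0 TPM in DKO. Transcript values are the authors' estimates from short reads and were not tested.

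Among spindle motors and microtubule binders, *Kif11* fell with MK-8722 in WT, and *Kif2c*, *Nusap1* and *Hmmr* rose with it in DKO. *Kif11*, the kinesin-5 that pushes spindle poles apart, stood in WT at 190.4, 206, 225 and 203 CPM with DMSO, 199, 225, 228 and 204 CPM with torin1 and 163, 173, 171 and 152 CPM with MK-8722. In DKO *Kif11* stood at 126, 144, 147 and 159 CPM with DMSO, 155, 178, 165 and 169 CPM with torin1 and 136, 163, 148 and 158 CPM with MK-8722. The WT libraries with MK-8722 lay below all those with DMSO, at a log2 fold change of -0.32 (SE 0.07, edgeR adjusted p = 0.0011), and DKO libraries with DMSO lay below WT ones, at -0.52 (SE 0.07, edgeR adjusted p = 9.22e-07). *Nusap1*, which bundles spindle microtubules near chromosomes, stood in WT at 87.2, 92.5, 98.9 and 94.7 CPM with DMSO, 109.9, 132, 131 and 123 CPM with torin1 and 76.3, 82.2, 82.7 and 71.4 CPM with MK-8722. In DKO *Nusap1* stood at 73.7, 86.7, 80.4 and 88.9 CPM with DMSO, 106, 125, 110.2 and 117 CPM with torin1 and 84.2, 109.6, 96.7 and 106 CPM with MK-8722. It had the largest difference between the genotypes in the response to MK-8722 among the 35 genes, a log2 difference of 0.52 (SE 0.11, edgeR adjusted p = 0.00395), from -0.26 in WT, without overlap but under the fold of 1.2, to 0.27 in DKO, where the ranges overlapped.

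*Hmmr*, a microtubule-binding partner of TPX2, was counted in WT at 85.7, 94.6, 101 and 92.1 CPM with DMSO, 71.9, 89.4, 88.1 and 76.6 CPM with torin1 and 95.9, 107, 101 and 87.8 CPM with MK-8722. In DKO *Hmmr* was counted at 71.8, 88.1, 85.5 and 89.7 CPM with DMSO, 72.5, 82.6, 74.99 and 71.6 CPM with torin1 and 92.8, 128, 110.3 and 113 CPM with MK-8722. It rose with MK-8722 in DKO, at a log2 fold change of 0.41 (SE 0.09, edgeR adjusted p = 0.00269) without overlap, and its value in WT was 0.07. *Kif2c*, a kinesin that takes apart microtubule ends, rose with MK-8722 in DKO, at a log2 fold change of 0.28 (SE 0.06, edgeR adjusted p = 0.00246). Both *Kif2c* and *Nusap1* lost their calls with MK-8722 in DKO without the DMSO library of passage 8 or the MK-8722 library of passage 9, *Kif2c* also without the MK-8722 library of passage 10, and *Nusap1* also without the DMSO library of passage 10 or the MK-8722 library of passage 11.

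Of the genes of the midzone and cytokinesis, *Kif23* fell with MK-8722 in WT and *Kif20a* rose with torin1 in DKO. *Kif23*, the motor of centralspindlin, was counted in WT at 150.4, 148, 150.3 and 141 CPM with DMSO, 139, 150.3, 157 and 127 CPM with torin1 and 119, 121, 122 and 104 CPM with MK-8722. In DKO *Kif23* was counted at 199, 205, 199.8 and 195 CPM with DMSO, 206, 218, 204 and 195 CPM with torin1 and 192, 205, 192 and 201 CPM with MK-8722. All DKO libraries lay above all WT libraries, and MK-8722 lowered it in WT, at a log2 fold change of -0.34 (SE 0.06, edgeR adjusted p = 5.32e-05), with -0.02 in DKO. *Kif20a*, which brings the passenger complex to the midzone, was counted in WT at 249.8, 257, 259.6 and 274 CPM with DMSO, 263, 280.5, 292 and 261 CPM with torin1 and 218, 237, 238 and 224 CPM with MK-8722. In DKO *Kif20a* was counted at 204, 223, 214 and 234 CPM with DMSO, 257, 280.3, 259.6 and 259.6 CPM with torin1 and 244, 272, 257 and 261 CPM with MK-8722. It rose with torin1 in DKO, at a log2 fold change of 0.27 (SE 0.05, edgeR adjusted p = 3.25e-05) without overlap, and its response to MK-8722 was called higher in DKO, at 0.42 (SE 0.07, edgeR adjusted p = 0.000162).

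*Anln* (anillin), the scaffold of the contractile ring, was counted in WT at 256, 280.3, 278 and 257 CPM with DMSO, 239, 251, 233 and 215 CPM with torin1 and 274, 309, 317 and 273 CPM with MK-8722. In DKO *Anln* was counted at 388, 429, 409.98 and 421 CPM with DMSO, 410.4, 429, 387 and 385 CPM with torin1 and 452, 525, 491 and 488 CPM with MK-8722. Under each treatment every DKO library lay above every WT library, with a log2 fold change of 0.62 (SE 0.06, edgeR adjusted p = 2.94e-09) with DMSO, the largest difference between the genotypes without drugs. *Prc1*, which bundles midzone microtubules, was also higher in DKO under each treatment, at 0.43, 0.47 and 0.68 on the log2 scale with DMSO, torin1 and MK-8722. *Ect2*, the activator of RHOA at the cleavage furrow, was called in 1 of the 11 comparisons, the response to MK-8722, at a log2 difference of 0.30 (SE 0.08, edgeR adjusted p = 0.0241).

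The partners of the anaphase-promoting complex were called with neither drug. *Cdc20*, its activator in mitosis, stood in WT at 171, 179, 180.4 and 186 CPM with DMSO, 171, 185, 187 and 158 CPM with torin1 and 157, 166, 173 and 149.9 CPM with MK-8722. In DKO *Cdc20* stood at 138, 147, 143 and 139 CPM with DMSO, 132, 150.2, 129.5 and 126 CPM with torin1 and 162, 175, 169 and 163 CPM with MK-8722. The DKO libraries lay below those of WT with DMSO, at a log2 fold change of -0.34 (SE 0.06, edgeR adjusted p = 1.84e-05), and the response to MK-8722 was called higher in DKO, at 0.39 (SE 0.08, edgeR adjusted p = 0.00302). *Ube2c* was counted in WT at 209.98, 220.2, 238 and 231 CPM with DMSO, 189.7, 218.9, 226 and 193 CPM with torin1 and 187, 201, 226 and 191 CPM with MK-8722. In DKO *Ube2c* was counted at 176, 205, 195 and 204 CPM with DMSO, 198, 215, 203 and 203 CPM with torin1 and 191, 225, 212 and 222 CPM with MK-8722. Its ranges overlapped in every comparison but that of DKO against WT with DMSO, which had a log2 fold change of -0.21 (SE 0.07, edgeR adjusted p = 0.011), under the fold of 1.2.

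*Top2a* and *Mki67*, both used as markers of proliferating cells, differed in which drug changed them by a called amount within a genotype. *Top2a* was counted in WT at 691, 727, 746 and 698 CPM with DMSO, 711, 774, 804 and 739 CPM with torin1 and 627, 654, 693 and 634 CPM with MK-8722. In DKO *Top2a* was counted at 526, 575, 561 and 591 CPM with DMSO, 842, 845, 834 and 837 CPM with torin1 and 589, 679, 659 and 687 CPM with MK-8722. Torin1 raised it in DKO, at a log2 fold change of 0.58 (SE 0.05, edgeR adjusted p = 4.91e-10) without overlap and left it at 0.08 in WT, and the difference of 0.49 (SE 0.07, edgeR adjusted p = 1.53e-05) was the largest between the responses to torin1. With MK-8722 the log2 fold change of *Top2a* was -0.13 in WT and 0.22 in DKO, neither of which was called. Their difference of 0.35 was called, as was that of *Mki67* at 0.40. *Mki67*, which coats mitotic chromosomes and is the gene of the Ki-67 antigen, was counted in WT at 514, 563, 530.3 and 439 CPM with DMSO, 524, 542, 565 and 488 CPM with torin1 and 398, 443, 417 and 375 CPM with MK-8722. In DKO *Mki67* was counted at 579.9, 663, 610.4 and 642 CPM with DMSO, 641, 702, 648 and 638 CPM with torin1 and 599.7, 726, 647 and 644 CPM with MK-8722. It fell with MK-8722 in WT, at a log2 fold change of -0.33 (SE 0.07, edgeR adjusted p = 0.000908), where the ranges overlapped by the lowest library with DMSO, and had 0.07 in DKO. With torin1 the values were a log2 fold change of 0.05 and 0.08 in WT and DKO.

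The difference in the response to MK-8722 was also read in other genes of mitosis. Among all genes tested, 1.42% were called higher and 4.08% lower. It was called higher for 14 of 29 other spindle and cytokinesis genes, with a median of 0.29 and with *Psrc1* at a log2 difference of 0.64 (SE 0.18, edgeR adjusted p = 0.0367), *Cdca2* at 0.45 (SE 0.07, edgeR adjusted p = 0.000157) and *Cdkn3* at 0.41 (SE 0.12, edgeR adjusted p = 0.0438). It was also called higher for 7 of 35 other centromere and kinetochore genes, with a median of 0.11 and with *Cenpm* and *Cenpl* at a log2 difference of 0.44 and 0.39. Of 16 regulators of CDK1 at entry into mitosis 5 were called higher, with *Mastl*, the Greatwall kinase, at a log2 difference of 0.47 (SE 0.11, edgeR adjusted p = 0.0129), *Gtse1* at 0.41 and the phosphatase *Cdc25c* at 0.40. Of 8 condensin genes 2 were called higher, *Ncaph* at a log2 difference of 0.35 and *Ncapd2* at 0.34, and of 13 cohesin genes 2, *Sgo2a* at 0.40 and *Esco2* at 0.32. Of 19 genes of the anaphase-promoting complex and separase 0 were called by edgeR, DESeq2 or limma voom, 5 were higher and 0 lower at an unadjusted p under 0.05, and the median was 0.08.

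The transcription factors of the G2 to M program and the genes of S phase had other values. Of 16 genes of these factors, 0 were called in the response to MK-8722 by edgeR, DESeq2 or limma voom, 2 were higher and 1 lower at an unadjusted p under 0.05, and the median was 0.07. *Mybl2*, the B-MYB subunit of the complex that reads the CHR, fell with MK-8722 in both genotypes, at a log2 fold change of -0.68 (SE 0.07, edgeR adjusted p = 1.77e-07) in WT and -0.62 (SE 0.07, edgeR adjusted p = 5.23e-06) in DKO, and with torin1, at -0.85 and -0.67. Of 48 DNA replication genes, 10 fell with MK-8722 in WT and 0 in DKO (also 0 by DESeq2 and limma voom, and 25 at an unadjusted p under 0.05), where 5.87% and 3.21% of all genes were called lower. Their medians were -0.14 and -0.09, and the difference of the responses was called lower for 1 and higher for 2 with a median of 0.06. The genes with the largest falls in WT were *Tyms*, *Rrm2* and *Cdc6* at a log2 fold change of -0.40, -0.40 and -0.36. The mean log2 CPM of the 48 genes relative to WT with DMSO was -0.13 ± 0.04 (SD, n = 4) in WT with MK-8722, -0.063 ± 0.01 in DKO with DMSO and -0.14 ± 0.02 in DKO with MK-8722. That of the mitosis genes was -0.13 ± 0.07, -0.02 ± 0.07 and 0.14 ± 0.09 in the same groups.

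Upstream of mitosis, *Ccnd1*, *Ccnd2* and *Ccne1*, cyclins of the G1 phase, fell with torin1 in both genotypes. *Ccnd2* and *Ccnd1*, the D-type cyclins that open the cell cycle in response to growth factors, fell, with a log2 fold change of -2.08 (SE 0.07, edgeR adjusted p = 8.53e-16) and -1.10 (SE 0.11, edgeR adjusted p = 1.17e-08) in WT and at -1.98 and -1.08 in DKO. *Ccne1*, the cyclin E1 of the start of S phase, fell, with a log2 fold change of -1.44 (SE 0.09, edgeR adjusted p = 6.99e-12) in WT and -0.95 in DKO. The counts that follow stand beside the 20.5% of all genes that were called lower and the 26.6% called higher in WT, and 20.2% and 23% in DKO. Of 12 D-type cyclins and CDK inhibitors 5 fell and 1 rose in WT, and 5 fell and 1 rose in DKO. Of the 48 DNA replication genes 16 fell and 5 rose in WT and 12 fell and 6 rose in DKO, and *Cdt1*, the licensing factor, rose, with a log2 fold change of 0.54 and 0.62. Of the 35 other centromere and kinetochore genes 9 fell and 5 rose in WT and 6 fell and 9 rose in DKO. *Oip5*, which helps to load CENPA, rose, with a log2 fold change of 0.82 (SE 0.06, edgeR adjusted p = 2.46e-11) in WT and 1.16 (SE 0.06, edgeR adjusted p = 1.39e-13) in DKO, but its exons overlap those of *Nusap1* on the other strand. Of the 29 other spindle and cytokinesis genes 1 fell and 7 rose in WT and 1 fell and 9 rose in DKO, with *Psrc1* at a log2 fold change of 0.99 and 1.17 and *Cit*, the citron kinase of the cleavage furrow, at 0.76 and 0.98. *Mastl* rose, with a log2 fold change of 0.64 in WT and 1.09 in DKO.

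Some counts can hold reads of other genes. Exons of 8 of the 35 genes overlap exons of a gene on the other strand, namely *Ccna2*, *Plk1*, *Cdca8*, *Nusap1*, *Kif20a*, *Prc1*, *Cdc20* and *Ube2c*, and whether the counting used the strand is not given in the sources used here. The table lists the pseudogenes *Ccnb1-ps* and *Ccnb2-ps*, with at most 62 and 8 counts in a library, and an exon of *Top2a* overlaps the small nucleolar RNA *Gm23451* on the same strand.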

How the data were processed

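RNA of 24 libraries was sequenced as 52 bp pairs by the submitters. Per the labels and the methods of the study, the authors ran the nf-core RNA-seq workflow with unique molecular identifiers taken into account, aligned with STAR and quantified with Salmon on GRCm38, and the deposited files hold estimated counts and TPM per gene and per transcript, with no version of either tool given in the labels. The estimated counts were rounded to whole numbers. Genes passing filterByExpr at a minimum count of 10 were kept (15401 of 55487), scaled by TMM and fitted over all 6 groups with edgeR's quasi-likelihood test (edgeR 4.0.16, R 4.3.3) with 18 residual degrees of freedom. P-values of each of 11 comparisons were adjusted by Benjamini-Hochberg over all genes. CPM used the same scaling. DESeq2 1.42.0 and voom of limma 3.58.1 were alternatives. The test was run on simulated counts drawn independently for each library, which lack the deviation that libraries of the same passage share. The outcome is not used here. Libraries held 24668921 to 33332562 counts (median 27988364), which sets the counting precision, and the biological coefficient of variation was 10.7%. No 2 libraries of a group agreed within sampling noise (chi-square per degree of freedom 3.98 to 40.9 over 36 pairs). Replicate numbers are not passages and did not pair the libraries. The labels name 1 batch. The methods of the study state that a batch effect was removed with limma but do not name the batch. The main fit here has no batch term, unlike that of the study. Exons come from the GENCODE annotation on GRCm38 and promoters from RefSeq (GRCm38.p6). All 35 genes were accounted for by name, with values per library for a chosen set and for the 3 largest called changes in each direction of a comparison. Of the other lists up to 3 called genes in each direction were named, and 1 gene of them is not reported here. The 35 genes and the other lists were chosen with earlier results of these data known.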

Additional observations from a re-analysis of the deposited data

Results flagged for a closer look

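The response to MK-8722 differed between DKO and WT, by edgeR's quasi-likelihood test of the difference itself, for 18 of the 35 genes. The log2 differences, DKO minus WT, were 0.34 for *Ccnb1*, 0.35 for *Ccnb2*, 0.43 for *Plk1*, 0.27 for *Aurka*, 0.31 for *Bub1b*, 0.29 for *Incenp*, 0.47 for *Cenpe*, 0.50 for *Cenpf* and 0.37 for *Ndc80*. They were 0.39 for *Kif11*, 0.38 for *Kif2c*, 0.52 for *Nusap1*, 0.42 for *Kif20a*, 0.32 for *Kif23*, 0.30 for *Ect2*, 0.39 for *Cdc20*, 0.35 for *Top2a* and 0.40 for *Mki67*. The response to torin1 differed for *Cenpe* at 0.33, *Ndc80* at 0.27 and *Top2a* at 0.49.

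In 210 sets of 4 libraries (35 genes in 6 groups), 7 had 1 library far from the other 3, where chance gives about 1 in 20. The DKO torin1 library of passage 9 stood above the others in 4 genes, with 129 CPM for *Ccnb2* (the others 115 to 116), 702 CPM for *Mki67* (638 to 648), 280.3 CPM for *Kif20a* (257 to 259.6) and 322 CPM for *Prc1* (294 to 298). Libraries of DKO passage 8 stood below the others with DMSO for *Ccna2*, at 319 CPM (335 to 336), and with MK-8722 for *Prc1*, at 318 CPM (372 to 381). The WT MK-8722 library of passage 11 had 104 CPM for *Kif23* (119 to 122).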

How the results depend on the processing

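The counts of called genes below are of the 35, lower then higher where both are given. DESeq2's size factors and Wald test, limma voom, the newer form of the edgeR fit, no filter on low counts and leaving out the DKO libraries of passage 8 (the last added after the data were seen) each kept all 22 counts (11 comparisons, lower and higher) within 1.5 times. With the adjusted p alone and no minimum fold, 13 were lower with torin1 and 13 with MK-8722 in WT. Of all 15401 genes tested, 4320 and 2343 were. In DKO 10 were lower with torin1, and 1 lower and 19 higher with MK-8722, where 4325, 1579 and 1619 of all genes were. For DKO against WT 14 were lower with DMSO, 6 lower and 14 higher with torin1, and 1 lower and 22 higher with MK-8722. Of all genes, 4918 were lower with DMSO, 5376 lower and 4808 higher with torin1, and 5008 lower and 4707 higher with MK-8722. For torin1 against MK-8722 in WT 9 were lower and 13 higher, and 6 had a higher response to torin1 in DKO. Of all genes, 4386 were lower and 4804 higher in the first of these, and 1146 had a higher response to torin1. With at least 10 counts in every library, 5 were lower in DKO than in WT with torin1 and 3 lower with torin1 than with MK-8722 in WT. With library size alone, 4 were lower with torin1 in WT, 5 lower and 5 higher in DKO than in WT with torin1, 0 lower with torin1 than with MK-8722 in WT, and 1 had a higher response to torin1 in DKO. The cause of these moves was not tested. Without passage 11, 5 had a higher response to torin1, as with passages 8, 9 and 11 alone. With the latter, 10 had a higher response to MK-8722. Both settings were chosen after the data were seen. Shares of all genes were not counted in fits that left libraries out.

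Leaving out 1 library at a time gave 8 to 10 lower and 4 to 4 higher with torin1 and 5 to 8 lower and 0 to 0 higher with MK-8722 in WT, and 2 to 5 lower and 6 to 8 higher with torin1 and 0 to 1 lower and 4 to 12 higher with MK-8722 in DKO. For DKO against WT it gave 6 to 10 and 6 to 7 with DMSO, 2 to 4 and 8 to 9 with torin1, and 0 to 0 and 12 to 16 with MK-8722. The response in DKO compared to WT was higher for 2 to 5 genes with torin1 and 15 to 25 with MK-8722. Torin1 against MK-8722 gave 3 to 6 and 7 to 9 in WT and 10 to 13 and 5 to 5 in DKO.

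Libraries with the same replicate number did not deviate together (median correlation 0.04, from -0.41 to 0.66, with 13 of 60 pairs over 0.1). Within a genotype, libraries of the same passage had a median correlation of 0.157 (from 0.0221 to 0.657, with 17 of 24 pairs over 0.1), and those of different passages -0.04 (with 7 of 72 over 0.1). With the replicate block, the 18 genes with a higher response to MK-8722 were again 18, all 22 counts kept within 1.5 times and 1 call of a gene was lost. With the passage within a genotype as a block, 20 genes had a higher response to MK-8722, with *Hmmr* and *Ube2c* added, where 3.16% of all genes did. With the same block 4 had a higher response to torin1, with *Incenp* added, where 6.74% of all genes did. Library size alone moved the share of higher among all calls by over 10 points, from 56.5% to 68.2% with torin1 in WT, 46.3% to 31.9% for DKO against WT with torin1, 42.5% to 26.5% in the response to torin1 and 55.4% to 66.3% for torin1 against MK-8722 in WT.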
